A study of Mus musculus with 4 samples.

Results

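The interferon-responding neutrophils are 269 cell barcodes of mouse lung, out of 34440 barcodes in 4 droplet single-cell RNA sequencing libraries, that carry neutrophil transcripts together with transcripts induced by interferon. They were chosen by their counts of UMIs (unique molecular identifiers, barcodes that let copies of 1 RNA molecule be counted once). A barcode first needed 500 UMIs and 200 detected genes or more, with mitochondrial UMIs not above 10%. It was then gated as a neutrophil if Csf3r, Cxcr2, Il1r2 and Hcar2 together had at least 2 UMIs, S100a8 and S100a9 made up at least 0.3% of its UMIs, Camp and Ngp made up less than 1%, and Cd3e, Cd79a, Ncr1, Marco, C1qa and Cdh5 had 0 UMIs. This gate held 1985 barcodes. Of these, the 269 members had at least 10 UMIs summed over 6 interferon-induced genes, Rsad2, Ifit1, Ifit3, Isg15, Cxcl10 and Gbp5, and the other 1716 are called other gated neutrophils.

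All mice were wild-type male C57BL/6 animals of 6 to 7 weeks, and each of the 4 groups is 1 library. The LPS+RT group received 200 µg of lipopolysaccharide (LPS, from the bacterial cell wall) into the trachea and 1 Gy of X-rays to the chest on the next day. The LPS group received the same LPS and no irradiation. The PBS+RT group received saline (PBS) and the same irradiation, and the PBS group received saline alone. Lungs were taken 48 hours after the injection, which is 24 hours after irradiation, and were enriched for mononuclear cells on a Ficoll layer of grade 1.084, a step that can set the share of neutrophils in a library. The libraries held 6708 to 10996 barcodes and 65995600 to 80013887 UMIs. The number of mice behind a library is not stated in the labels. With 1 library per group no difference between groups has a replicate check, no test was made and no p-value is given. The intervals (exact, 95%) describe counting error alone.

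Interferons are secreted proteins that set cells on guard against viruses and bacteria. Type I interferons act through IFNAR1 and IFNAR2 and a factor complex that contains IRF9 and binds a DNA element called ISRE, whereas interferon gamma acts through IFNGR1, IFNGR2 and JAK kinases to factors at a GAS element, with IRF1 as an early target. Neutrophils are short-lived phagocytes that enter the lung airspaces after LPS. They carry the receptors for both kinds of interferon.

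The promoters of 4 of the 6 genes that chose the members are shown, since these 4 carried most of the interferon UMIs: Cxcl10, a chemokine for T cells, and Gbp5, a guanylate-binding GTPase, which were prominent in the LPS library, and Rsad2 (viperin, an antiviral enzyme) and Isg15 (a ubiquitin-like protein), which were prominent in LPS+RT. Each window runs from 250 bases before to 50 bases after the gene's start in RefSeq, 5′ to 3′ on the gene's strand, on build GRCm38.p6. Capitals mark matches to an ISRE-like motif (GAAA, 2 bases of any kind, then GAAA) on either strand, and in Gbp5 also to TTCNNNGAA, a GAS-like motif that reads the same on both strands. Cxcl10 (chr5:92348840-92349139, minus strand) holds 1 ISRE-like match, Gbp5 (chr3:142496684-142496983, plus strand) holds 1 ISRE-like and 2 GAS-like matches, Rsad2 (chr12:26456403-26456702, minus strand) holds 1 ISRE-like match, and Isg15 (chr4:156200769-156201068, minus strand) holds 3 ISRE-like matches that overlap.
Cxcl10: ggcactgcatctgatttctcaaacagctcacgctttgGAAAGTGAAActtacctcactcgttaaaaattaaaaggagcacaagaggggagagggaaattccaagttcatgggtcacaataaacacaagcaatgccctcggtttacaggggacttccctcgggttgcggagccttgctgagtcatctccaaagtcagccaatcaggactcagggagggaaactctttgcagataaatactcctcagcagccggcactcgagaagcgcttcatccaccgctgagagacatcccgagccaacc
Gbp5: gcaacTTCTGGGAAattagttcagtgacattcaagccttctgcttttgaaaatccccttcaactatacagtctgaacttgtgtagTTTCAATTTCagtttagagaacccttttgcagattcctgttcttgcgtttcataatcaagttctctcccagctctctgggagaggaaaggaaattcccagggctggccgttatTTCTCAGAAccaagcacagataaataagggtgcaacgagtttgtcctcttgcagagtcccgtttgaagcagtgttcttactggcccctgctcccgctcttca
Rsad2: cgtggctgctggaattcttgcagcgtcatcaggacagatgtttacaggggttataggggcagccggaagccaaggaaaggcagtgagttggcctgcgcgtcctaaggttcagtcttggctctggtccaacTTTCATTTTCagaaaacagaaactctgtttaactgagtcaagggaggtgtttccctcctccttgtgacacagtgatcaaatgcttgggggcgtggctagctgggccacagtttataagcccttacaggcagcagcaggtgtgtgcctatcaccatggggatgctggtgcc
Isg15: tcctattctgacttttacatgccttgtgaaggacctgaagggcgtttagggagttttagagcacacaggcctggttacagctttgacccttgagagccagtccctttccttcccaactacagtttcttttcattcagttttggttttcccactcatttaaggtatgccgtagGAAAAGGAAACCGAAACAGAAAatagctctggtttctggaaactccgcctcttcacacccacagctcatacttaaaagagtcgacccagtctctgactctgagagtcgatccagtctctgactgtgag
The ISRE-like match begins at position -213 from the start site in Cxcl10, at -165 in Gbp5 and at -120 in Rsad2. The ISRE-like motif was found in the windows of 6 of 6 genes of the sum (100%), against 1131 of 32851 windows of all genes (3.44%). It was also found in 14 of 26 windows (53.8%) of the antiviral effector list, of which 20 of 25 genes matched the table, and in 9 of 11 windows (81.8%) of the list of interferon-inducible GTPases, of which 10 of 16 genes matched. The GAS-like motif was found in 1 of 6 windows of the sum (16.7%), 5 of 26 effector windows (19.2%) and 5 of 11 GTPase windows (45.5%), against 2726 windows of all genes (8.3%). A match is a run of letters and not a measured binding site. In the GENCODE annotation of mm10, Cxcl10 (chr5:92346638-92348889) lies beside Cxcl9 (chr5:92321347-92328079), Gbp5 (chr3:142493978-142522344, a start upstream of the RefSeq start used for the window) near Gbp2 (chr3:142620602-142638008), and Ifit1 (chr19:34640871-34650009) near Ifit3 (chr19:34583531-34588731) and Ifit2 (chr19:34550694-34576419).

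The members made up a smaller share of gated neutrophils in LPS+RT than in LPS, by 4.02-fold. The members were 7 of 185 gated neutrophils in LPS+RT (3.78%, 1.54 to 7.64%), 258 of 1695 in LPS (15.2%, 13.5 to 17.0%), 3 of 69 in PBS+RT (4.35%, 0.906 to 12.2%) and 1 of 36 in PBS (2.78%, 0.0703 to 14.5%). The ratio of LPS+RT to LPS was 0.249 (0.0990 to 0.520). The other ratios had intervals that include 1: LPS over PBS was 5.48 (0.975 to 217), LPS+RT over PBS+RT was 0.870 (0.199 to 5.22), and PBS+RT over PBS was 1.57 (0.126 to 82.2). These pairs share libraries and are not independent of each other.

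The gate itself was unevenly filled. Gated neutrophils were 1.87% of all barcodes after filters in LPS+RT, 18.6% in LPS, 1.09% in PBS+RT and 0.398% in PBS. As a share of all barcodes, the members were therefore 0.0706% in LPS+RT, 2.82% in LPS, 0.0473% in PBS+RT and 0.0111% in PBS. The 6 genes were also higher outside the gate in LPS: at least 10 of their UMIs were held by 1.72% of barcodes outside the gate in LPS+RT, 13.1% in LPS, 2.29% in PBS+RT and 1.30% in PBS. The members were 21.0% of the 1231 LPS barcodes with such a sum, so most barcodes that met it were of other cell types or failed another part of the gate. RNA released by other cells into the droplets can add to these sums, and its part in the shares was not tested.

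**Figure D1:**
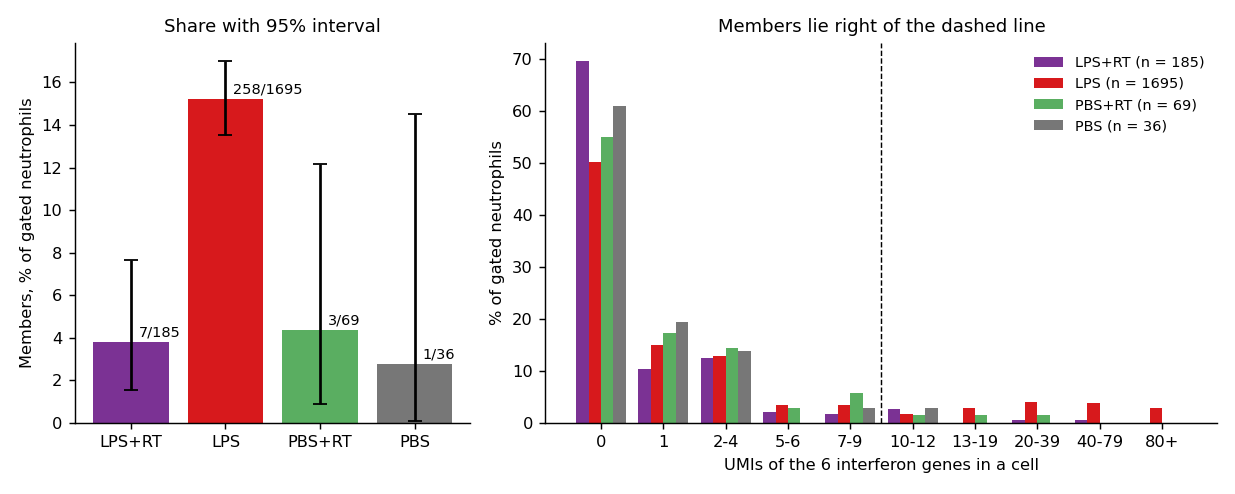
Left, members as a percentage of gated neutrophils in each library, with exact 95% intervals and the counts. Right, distribution of the 6-gene UMI sum over the gated neutrophils of each library, with the members to the right of the dashed line. LPS has 15.2% members and the only sums of 80 or more, whereas 3 libraries have 1 to 7 members each.

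The interferon sum was a graded quantity with a long upper end in LPS and not a separate peak. In LPS, 852 of 1695 gated neutrophils had none of these UMIs (50.3%), 57 had 5 to 6, 58 had 7 to 9, 30 had 10 to 12, and 47 had 80 or more. The sum of an LPS member had a median of 31 and reached 501. In LPS+RT, 129 of 185 gated neutrophils had none (69.7%), 3 had 7 to 9 and 5 of the 7 members had 10 to 12. On either side of the threshold in LPS, values of other interferon-induced genes were of the same order. Cells just inside it (10 to 12 UMIs) had 95.4 CPM (UMIs of a gene per 1000000 UMIs of the cells summed) of Irf7 and cells just outside it (7 to 9 UMIs) had 66.3 CPM, while Igtp was at 212 CPM inside and 166 CPM outside, Oasl1 at 21.2 and 47.0 CPM, and Ifit2 at 0 and 5.53 CPM. Depth differed between libraries, with a median of 4188 UMIs per gated neutrophil in LPS+RT and 5481 in LPS, so each barcode was also thinned to 1000 UMIs, with shallower barcodes left out. At least 5 interferon UMIs then remained in 2 of 174 gated neutrophils in LPS+RT (1.15%), 146 of 1637 in LPS (8.92%), 0 of 61 in PBS+RT and 0 of 33 in PBS.

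The genes behind the sum differed between the libraries. In the 258 LPS members, Cxcl10 gave 5482 UMIs (41.0% of the sum, in 207 cells), Rsad2 gave 2434 (18.2%, in 189 cells), Isg15 gave 2345 (17.6%, in 229 cells) and Gbp5 gave 1768 (13.2%, in 208 cells). Ifit1 and Ifit3, tetratricopeptide proteins that bind viral RNA or its partners, gave 911 UMIs (6.82%) and 419 UMIs (3.14%) in LPS. In the 7 LPS+RT members, Isg15 gave 58 UMIs (46.4%), Rsad2 gave 49 (39.2%), Ifit1 gave 11, Gbp5 gave 5 in 2 cells, Ifit3 gave 2 and Cxcl10 gave 0. The 3 PBS+RT members held 37 Isg15 UMIs, 11 of Rsad2, 10 of Ifit1, 2 of Ifit3 and 0 of Cxcl10 and Gbp5. The 1 PBS member held 9 of Ifit1, 2 of Isg15 and 1 of Rsad2. So all Cxcl10 UMIs of members, and nearly all Gbp5 UMIs, came from the LPS library. That library held 258 of the 269 members and also gave most member UMIs of each of the other genes of the sum. The libraries are therefore better compared by the parts of the sum.

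**Figure D2:**
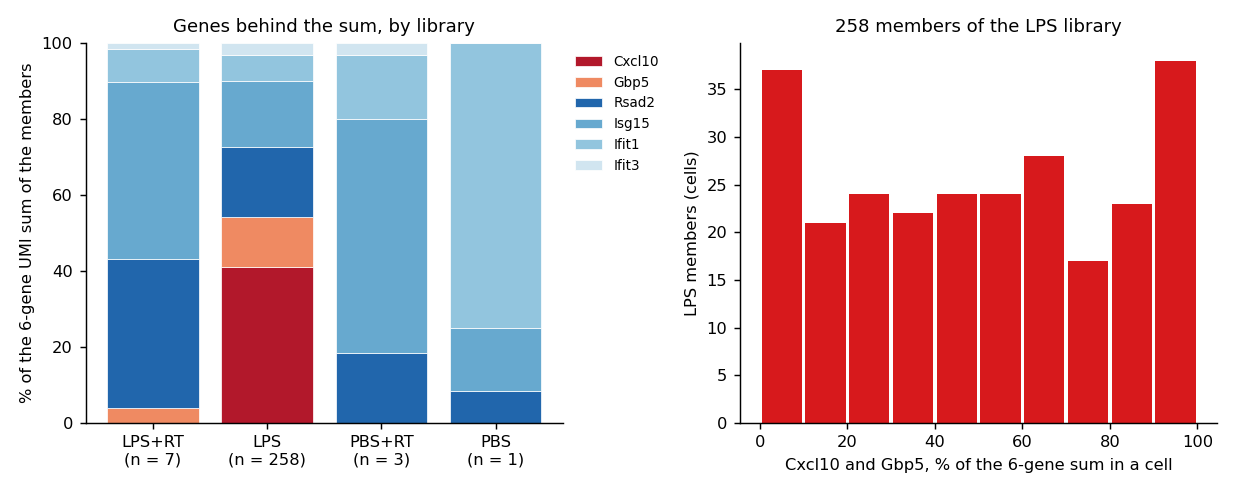
Left, share of each of the 6 genes in the summed interferon UMIs of the members, by library. Right, number of LPS members by the share of Cxcl10 and Gbp5 in their own sum, in steps of 10%. Cxcl10 makes up 41.0% of the sum in LPS and 0 in the other 3 libraries, and the LPS members spread over the whole range, with 37 in the lowest step and 38 in the highest.

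Measured over all gated neutrophils, members and others together, the same 6 genes had the following levels. Cxcl10 was at 6.30 CPM in LPS+RT, 567 in LPS, 8.78 in PBS+RT and 17.6 in PBS, against 33.6, 347, 16 and 24.4 CPM outside the gate in those libraries. Gbp5 was at 16.4 CPM in LPS+RT, 195 in LPS, 6.58 in PBS+RT and 0 in PBS. Isg15 was at 182 CPM in LPS+RT, 297 in LPS, 195 in PBS+RT and 135 in PBS, against 39, 158, 28.4 and 36.8 CPM outside the gate. Isg15 was thus above the level of the other barcodes in the neutrophils of every library, whereas Cxcl10 was above it only in LPS. Rsad2 was at 83.2 CPM in LPS+RT, 263 in LPS, 68.0 in PBS+RT and 17.6 in PBS.

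Markers that the rule did not use fitted the name neutrophil. All 12 such markers, among them Retnlg, Mmp9, Clec4d, Clec4e, Trem1, Ly6g and Acod1, were detected in the LPS members. They summed to 15910 CPM there, against 14270 CPM in the other gated neutrophils of LPS. The higher sum did not hold across the list. Of 11 measured markers, Acod1 alone was at least 1.5-fold higher in members and 2 were lower, with a median log2 ratio of -0.22. At least 3 of their UMIs were held by 258 of 258 LPS members and 1420 of 1437 other gated neutrophils. Outside the gate in LPS, 4309 of 7444 barcodes (57.9%) held as many, so this count separates weakly. The markers summed to 3342 CPM in those barcodes.

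Markers of other cell types were higher in the LPS members too. The monocyte list summed to 976 CPM in LPS members and 453 CPM in other gated neutrophils, with at least 3 UMIs in 121 of 258 and 434 of 1437 barcodes. The macrophage list summed to 514 CPM in members and 349 CPM in others, and the dendritic list to 489 and 61.1 CPM, with Xcr1 and Cd209a at 0 in the members. The structural list (endothelium, stroma and epithelium) summed to 746 CPM in members and 462 in others, with Epcam at 0 in members, and the lymphocyte list to 34.9 and 48.7 CPM. Some genes of the monocyte list, such as Csf1r, are found at low level in neutrophils. Csf1r itself differed little, at 198 CPM in members and 183 CPM in others. Of the 8 measured monocyte genes, 5 were at least 1.5-fold higher in members and 0 lower, against 8.88% and 9.63% of all genes. Among them, Ly6c2 was at 337 CPM in members and 93.2 CPM in others, and Fn1 at 107 and 25.7 CPM. In the dendritic list, H2-Ab1 was at 251 and 22.4 CPM.

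Part of this lay in a few deep barcodes. Without the 16 members and 19 others in LPS that held over 3 times the median UMIs of the gated neutrophils, the monocyte list summed to 530 CPM in members and 362 CPM in others, the macrophage list to 426 and 289 CPM, the dendritic list to 274 and 56.6 CPM and the structural list to 375 and 477 CPM. Barcodes with at least 3 UMIs of the monocyte, macrophage and dendritic lists together made up 188 of the 258 LPS members, 5 of the 7 LPS+RT members, 1 of 3 in PBS+RT and 0 of 1 in PBS. Such barcodes were common among the other gated neutrophils too. In LPS, 631 of the 1437 others held fewer than 3, against 70 of the 258 members. In LPS+RT, 80 of all 185 gated neutrophils held fewer than 3. Without any such barcode, the members were 2 of 80 gated neutrophils in LPS+RT (2.50%, 0.304 to 8.74%), 70 of 701 in LPS (9.99%, 7.87 to 12.5%), 2 of 34 in PBS+RT (5.88%) and 1 of 15 in PBS (6.67%). For the LPS members and for all gated neutrophils, the main list counts are also given without these barcodes, but not for the few members outside LPS.

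Within the LPS library, the members carried a broad set of interferon-induced transcripts beyond the 6 that chose them. Because the rule used counts of the same cells, the differences between members and other gated neutrophils are a description. A gene counts as higher or lower if its CPM differed by at least 1.5-fold, among genes with at least 20 CPM and 30 UMIs in both sets together, and the 20 genes of the rule are left out. By this, 8.88% of 5295 genes were higher and 9.63% lower in the LPS members, with the same counts where the interval also had to exclude 1. The median log2 ratio of all these genes was -0.17.

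Of the antiviral effectors, 15 of the 18 measured were higher in LPS members and 0 lower, with a median log2 ratio of 2.57. Ifit2, of the family that binds viral RNA, was at 258 CPM in members (73 of 258 cells) and 2.19 CPM in other gated neutrophils (18 of 1437 cells), a ratio of 118 (73.9 to 201). Oasl1, an oligoadenylate synthetase-like protein that limits Irf7 translation, was at 234 CPM in members (113 cells) and 11.6 CPM in others (57 cells), a ratio of 20.3 (16.2 to 25.5). Ifitm3, which blocks virus entry at endosomes, was at 1683 CPM in members and 412 CPM in others, a ratio of 4.09 (3.89 to 4.29). Cmpk2, a mitochondrial nucleotide kinase that neighbours Rsad2 in the genome, was at 110 CPM in members and 5.96 CPM in others, a ratio of 18.4. Isg20, an exonuclease, was at 245 CPM in members and 32.7 CPM in others. Trim30a was at 643 CPM in members and 103 CPM in others. The 3 effectors under 1.5-fold were Ifitm1 (1.17), Ifitm2 (0.97) and Slfn1 (1.38).

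Sensors of nucleic acids and their partners were higher for 14 of the 15 measured, with a median log2 ratio of 2.97. Zbp1, a sensor of Z-form nucleic acids that can start necroptosis, was at 313 CPM in members and 39.8 CPM in others, a ratio of 7.87 (6.87 to 9.02). Ifih1 (MDA5), a sensor of long double-stranded RNA, was at 287 CPM in members and 37.1 CPM in others. Ddx58 (RIG-I) was at 177 CPM in members and 37.6 CPM in others. Both RNA sensors were thus higher, by 7.72-fold and 4.72-fold. Aim2, an inflammasome sensor of DNA, was the member of the list that was not higher, at 127 CPM in members and 179 CPM in others, a ratio of 0.71. Xaf1 was at 147 CPM in members and 12.9 CPM in others, and Parp14 at 928 and 116 CPM.

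All 10 measured GTPases of the GBP and IRG families, which attack the membranes of bacteria and vacuoles, were higher in LPS members, with a median log2 ratio of 3.26. Gbp2 was at 1916 CPM in members (235 of 258 cells) and 145 CPM in others (303 of 1437 cells), a ratio of 13.3 (12.4 to 14.2). Ifi47, an IRG GTPase, was at 432 CPM in members (211 cells) and 29.0 CPM in others (141 cells), a ratio of 14.9 (12.9 to 17.3). These GTPases were found in most members, unlike Ifit2. Irgm1 was at 339 CPM in members and 30.7 CPM in others, Igtp at 234 and 40.8 CPM, and Iigp1 at 85.4 and 11.6 CPM.

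The receptors differed little and the factors downstream of them more. Ifnar1 was at 93.5 CPM in LPS members and 94.5 CPM in others (ratio 0.99), and Ifnar2 at 297 and 230 CPM (1.29). Ifngr1 was at 111 CPM in members and 141 CPM in others (0.79), and the kinase Jak1 at 482 and 441 CPM (1.09). Of the 16 genes of the signalling list, 7 were higher and 0 lower, and none of the 7 was a receptor or a kinase. Irf7, which amplifies type I interferon, was at 186 CPM in members and 23.5 CPM in others, a ratio of 7.90 (6.62 to 9.45). Stat2, a partner of Irf9, was at 129 CPM in members and 21.8 CPM in others, a ratio of 5.94. Irf1 had a ratio of 3.98, Irf8 of 3.24, Irf9 of 2.32 and Irf5 of 1.58.

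Feedback regulators were higher for 3 of the 6 measured. Herc6, the mouse ligase that attaches Isg15 to proteins, was at 534 CPM in members (183 cells) and 24.8 CPM in others (119 cells), a ratio of 21.5 (18.5 to 25.1). Usp18, which removes Isg15 and blocks the type I receptor, was at 147 CPM in members and 10.6 CPM in others, a ratio of 13.9. Socs1, an inhibitor of JAK kinases, was at 178 CPM in members and 29.3 CPM in others, a ratio of 6.07.

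All 15 genes of MHC class I presentation were higher in LPS members, with a median log2 ratio of 1.81. Its master activator Nlrc5 was at 381 CPM in members and 80.9 CPM in others, a ratio of 4.70. The peptide transporter Tap1 was at 258 CPM in members and 56.0 CPM in others, and the immunoproteasome subunit Psmb8 at 541 and 134 CPM. The light chain B2m, already abundant, was at 2726 CPM in members and 1133 CPM in others, a ratio of 2.41 (2.33 to 2.49). Among 6 measured genes that dampen T cells, 3 were higher. Cd274, which encodes PD-L1, was at 2012 CPM in members (242 of 258 cells) and 490 CPM in others (835 of 1437 cells), a ratio of 4.11 (3.93 to 4.3). Lgals9 had a ratio of 1.93, and Il1rn one of 1.29. The third of the 3 higher genes was Arg1, at 169 CPM in members and 2.92 CPM in others, with 334 UMIs in only 5 members, and without the deep barcodes it was at 1.91 CPM in members and 2.98 CPM in others.

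Inflammatory cytokines and chemokines divided, with 9 of 19 higher and 1 lower in LPS members. Cxcl9, a chemokine that like Cxcl10 attracts T cells, was at 687 CPM in members (49 cells) and 12.5 CPM in others (49 cells), a ratio of 54.8 (44.8 to 67.6). Ccl5 was at 469 CPM in members (56 cells) and 31.4 CPM in others (187 cells), a log2 ratio of 3.90 that was 3.01 with each cell weighted equally and 2.89 after thinning. Tnf was at 547 CPM in members and 255 CPM in others, a ratio of 2.15. The most abundant transcripts of the list were not higher: Cxcl2 was at 19470 CPM in members and 24360 CPM in others, Il1b at 10650 and 12020 CPM, and Ccl3 at 6017 and 6739 CPM. Cxcl3 was the lower gene, at 383 CPM in members and 1187 CPM in others, a ratio of 0.32 (0.299 to 0.347). Beyond the lists, Nos2, whose enzyme makes nitric oxide against microbes, had 319 CPM in members (71 cells) and 14.1 CPM in others (65 cells), a ratio of 22.6.

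**Figure D3:**
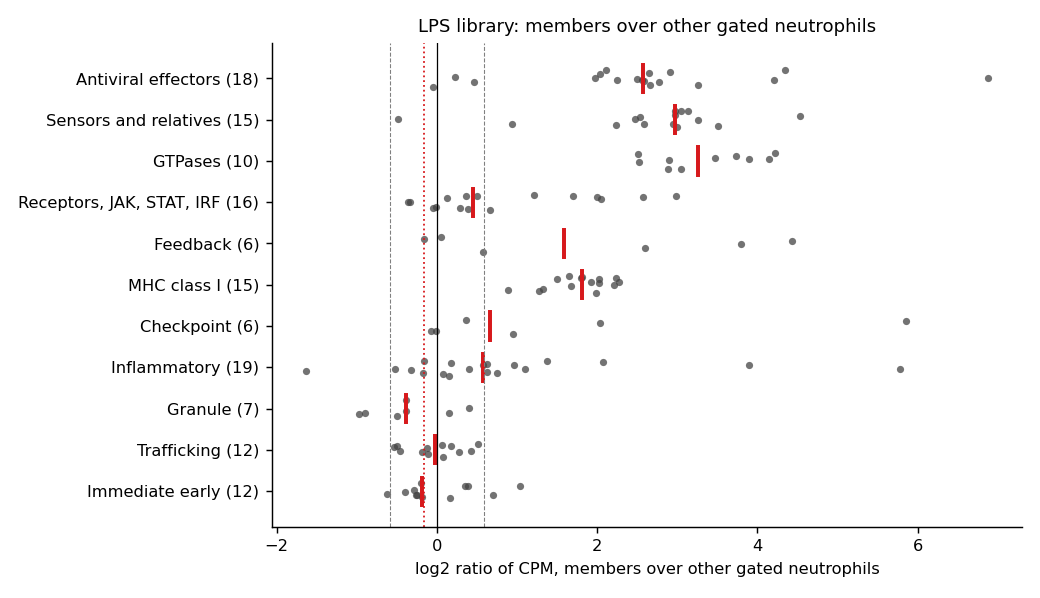
Each dot is the log2 ratio of CPM of 1 gene in the 258 members over the 1437 other gated neutrophils of the LPS library, by gene list, with the number of measured genes in brackets. Red bars mark list medians, the dotted line the median of all 5295 genes and dashed lines a 1.5-fold difference. GTPases, sensors and antiviral effectors have medians of 3.26, 2.97 and 2.57, and trafficking genes stay within 1.5-fold.

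The effector, sensor, GTPase and MHC class I lists stayed mostly higher when barcodes with other-type markers were left out. In the 70 members and 631 others of LPS without 3 UMIs of the monocyte, macrophage and dendritic lists, where 8.55% of genes were higher and 29.4% lower, 16 of 17 effectors were higher, as were 11 of 12 sensors (1 lower), 8 of 8 GTPases and 15 of 15 MHC class I genes. The signalling list then had 7 of 15 higher and 3 lower, the feedback list 4 of 6 higher, the T cell dampening list 2 of 5 higher and the inflammatory list 7 of 18 higher and 2 lower. Without the deep barcodes, with 7.6% of genes higher and 14.8% lower, the counts higher were 16 of 18 effectors, 13 of 14 sensors, 9 of 9 GTPases and 15 of 15 MHC class I genes. Single genes followed: without the deep barcodes Ifit2 was at 312 CPM in members and 2.33 CPM in others, Gbp2 at 2197 and 144 CPM, Cd274 at 2338 and 494 CPM, Nos2 at 230 and 15.0 CPM, and Cxcl9 at 549 and 7.77 CPM. Thinned to 1000 UMIs per cell, an LPS member held on average 10.5 UMIs of the effector list and another gated neutrophil 3.89, and for the GTPases 5.25 and 0.452. Genes of near-identical families (Gbp, Slfn, Ifi200, Trim30, H2-Q, Ifit3 and Ifit3b) may have reads split or dropped between copies, so their single values are uncertain.

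Among the LPS members the balance of the 6 genes varied from cell to cell. Cxcl10 and Gbp5 made up more than 50% of the sum in 123 members and at most 50% in the other 135, a division made after the values were seen. It falls within a continuous range: 45 members lay between 40 and 60%, 37 were under 10% and 37 over 90%. All 6 genes were found in 57 members, at least 4 in 166, and Rsad2 together with Cxcl10 in 144. Median depth was alike, at 6212 UMIs in the 123 and 6160 in the 135.

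Some antiviral effectors were lower and some GTPases higher in the members led by Cxcl10 and Gbp5. The division uses genes of the rule, so this too is a description. Compared with the other members, 15% of 5247 genes were higher in them and 10.3% lower. Of 20 measured effectors, 0 were higher and 9 lower, and of 14 GTPases, 6 were higher and 0 lower, with an interval clear of 1 for all 9 of these effectors and 5 of these GTPases. Ifit2 was at 140 CPM in the members led by Cxcl10 and Gbp5 and 381 CPM in the others, Usp18 at 69.5 and 227 CPM, and Irf7 at 126 and 247 CPM. On the other side, Cxcl9 was at 1078 CPM in the members led by Cxcl10 and Gbp5 and 281 CPM in the others (ratio 3.84), Iigp1 at 130 and 39.1 CPM (3.33), Irf1 at 1018 and 601 CPM (1.69) and Irf8 at 89.4 and 12.4 CPM (7.24). Gbp2, at 2115 and 1710 CPM, and Cd274, at 2065 and 1957 CPM, were alike in both. The MHC class I list had 0 of 15 higher and 0 lower. The monocyte list was also higher in the members led by Cxcl10 and Gbp5, at 1368 CPM against 569 CPM, as were the structural list, at 1084 against 395 CPM, and the dendritic list, at 582 against 393 CPM. Some of the highest genes lay in few barcodes. Arg1 had 333 UMIs in 4 of the members led by Cxcl10 and Gbp5 and 1 UMI in the others, and Tnc 211 UMIs in 4 cells and 0. The part of these lists and barcodes in the difference was not tested, and the values were not computed without deep or marker barcodes.

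The few members outside LPS are described cell by cell. The 7 LPS+RT members had sums of 26, 43, 12, 10, 11, 12 and 11. The cell with a sum of 43 held 24 Isg15, 9 Rsad2 and 8 Ifit1 UMIs along with 5 of Irf7 and 3 of Oasl1, in 4432 UMIs. The cell with a sum of 26 held 19 Rsad2 and 7 Isg15 UMIs and 0 of Irf7. A further cell was unlike the others: it held 13301 UMIs, 30.5% of them S100a8 and S100a9, with 760 of the 780 Retnlg UMIs of the 7 cells, and 11 of its 12 interferon UMIs were Isg15. The 3 PBS+RT members had sums of 36, 10 and 14, and the 1 PBS member a sum of 12. No Ifit2 UMI was found in the 7 LPS+RT members, 1 was found in the PBS+RT members and 0 in the PBS member.

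Against the other 178 gated neutrophils of LPS+RT, the 7 members had 17.2% of 3700 genes higher and 41% lower, shares that rest on the few UMIs of 7 cells. With an interval clear of 1 these were 5.16% and 7.62%. Of 12 measured effectors 9 were higher and 1 lower, of 10 MHC class I genes 7 were higher and 0 lower, and of 6 sensors 4 were higher and 1 lower. With an interval clear of 1, 5 effectors, 7 MHC class I genes and 3 sensors were higher, and 1 effector lower. Socs1 was at 422 CPM in the members (18 UMIs in 3 cells) and 16 CPM in the others, a ratio of 26.4 (12 to 60.1). Tap1 was at 235 CPM in the members (10 UMIs in 4 cells) and 30.6 CPM in the others, a ratio of 7.66 (3.25 to 16.7). Ltf and Cd177, genes of granule proteins, were also higher, but each in 1 cell.

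Set beside the LPS members, the 7 LPS+RT members had lower levels of most GTPases, inflammatory genes and effectors. The intervals of many of these GTPases and effectors include 1. Here 19.9% of 5233 genes were higher and 41.6% lower in LPS+RT, and 5.31% and 6.12% where the interval also excluded 1. Of 14 GTPases, 0 were higher and 13 lower, 6 of them with an interval clear of 1, and of 19 inflammatory genes 1 was higher and 13 lower, 12 of them with such an interval. Gbp2 was at 93.8 CPM in LPS+RT members and 1916 CPM in LPS members, a ratio of 0.049 (0.0133 to 0.126). Cd274 was at 328 CPM in LPS+RT members and 2012 CPM in LPS members, and Ccl3 at 1267 and 6017 CPM. Irf7 was at 211 CPM in LPS+RT members, from cells with 5, 3 and 1 of its UMIs, and 186 CPM in LPS members. Its ratio was 1.14 (0.516 to 2.19), an interval that includes 1 as do those of many genes counted as lower. Socs1 was at 422 CPM in LPS+RT members and 178 CPM in LPS members. Isg15, at 1361 and 1185 CPM, and Rsad2, at 1150 and 1230 CPM, are genes of the rule, whose levels in members the rule sets in part. Zbp1, Ifi47, Gbp3, Ifit2, Cxcl9 and Ccl2 had 0 UMIs in the 42626 UMIs of the LPS+RT members. Of these 42626 UMIs, 13301 came from the 1 cell with 30.5% S100a8 and S100a9, which weighs on all CPM values of this set. For Ifi47 the upper bound of the ratio was 0.201, for Cxcl9 0.126 and for Ifit2 0.336. Of the 20 effectors, 0 were higher and 17 lower, 7 of these with an interval clear of 1. The 2 sets were not matched for the interferon sum, which was 10 to 12 in 5 LPS+RT members and had a median of 31 in LPS members. The 30 LPS members with sums of 10 to 12 also had 0 CPM of Ifit2. Igtp was at 69.0 CPM in those 5 LPS+RT cells and 212 CPM in those 30 LPS cells, and Irf7 at 138 and 95.4 CPM.

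Since the members were few in LPS+RT, interferon-induced genes were also compared over all 185 gated neutrophils of LPS+RT and all 1695 of LPS, a comparison chosen after this was seen. Most measured genes of the interferon-induced lists were lower in LPS+RT. Here 10.6% of 5303 genes were higher and 17.2% lower, and the median log2 ratio of all was -0.06. All 10 GTPases were lower, with a median log2 ratio of -2.54 in which Gbp4, at 0 UMIs in LPS+RT, was placed at a floor of 3 counts. Of the sensors, 13 of 15 were lower and 0 higher (median -1.63), of the MHC class I genes 10 of 15 (-0.82) and of the effectors 11 of 18 (-0.64), with 0 higher in each. The inflammatory list was lower too, for 10 of 19 genes with 0 higher (-0.72), so lower levels were not particular to the interferon-induced lists. The receptors were alike: Ifnar1 was at 98.3 CPM in LPS+RT and 94.3 CPM in LPS, and Ifngr1 at 125 and 135 CPM. Fewer responding cells and less RNA per responding cell cannot be told apart in such summed levels.

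Single genes showed how uneven the reduction was over the 4 libraries. Gbp2 was at 32.8 CPM in LPS+RT, 488 in LPS, 26.3 in PBS+RT and 5.88 in PBS. Usp18 was at 12.6 CPM in LPS+RT, 37.1 in LPS, 4.39 in PBS+RT and 5.88 in PBS. LPS stood above the other 3 libraries in both genes. Zbp1 was at 15.1 CPM in LPS+RT, 92.7 in LPS, 8.78 in PBS+RT and 23.5 in PBS. Ifit2 was at 1.26 CPM in LPS+RT (1 UMI), 51.9 in LPS, 2.19 in PBS+RT (1 UMI) and 0 in PBS. Irf7, also highest in LPS, differed less: it was at 44.1 CPM in LPS+RT, 54.9 in LPS, 19.8 in PBS+RT and 41.1 in PBS, with a ratio of LPS+RT to LPS of 0.80 (0.554 to 1.13). Cd274 was at 314 CPM in LPS+RT (69 of 185 cells), 785 in LPS (1077 of 1695 cells), 288 in PBS+RT and 94.0 in PBS. B2m, which all gated neutrophils express strongly, was at 1267 CPM in LPS+RT, 1442 in LPS, 790 in PBS+RT and 958 in PBS. Oasl1, at 17.6 CPM in LPS+RT, 54.7 in LPS, 57.1 in PBS+RT and 5.88 in PBS, was as high in PBS+RT as in LPS, with 26 UMIs in 6 cells of PBS+RT.

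**Figure D4:**
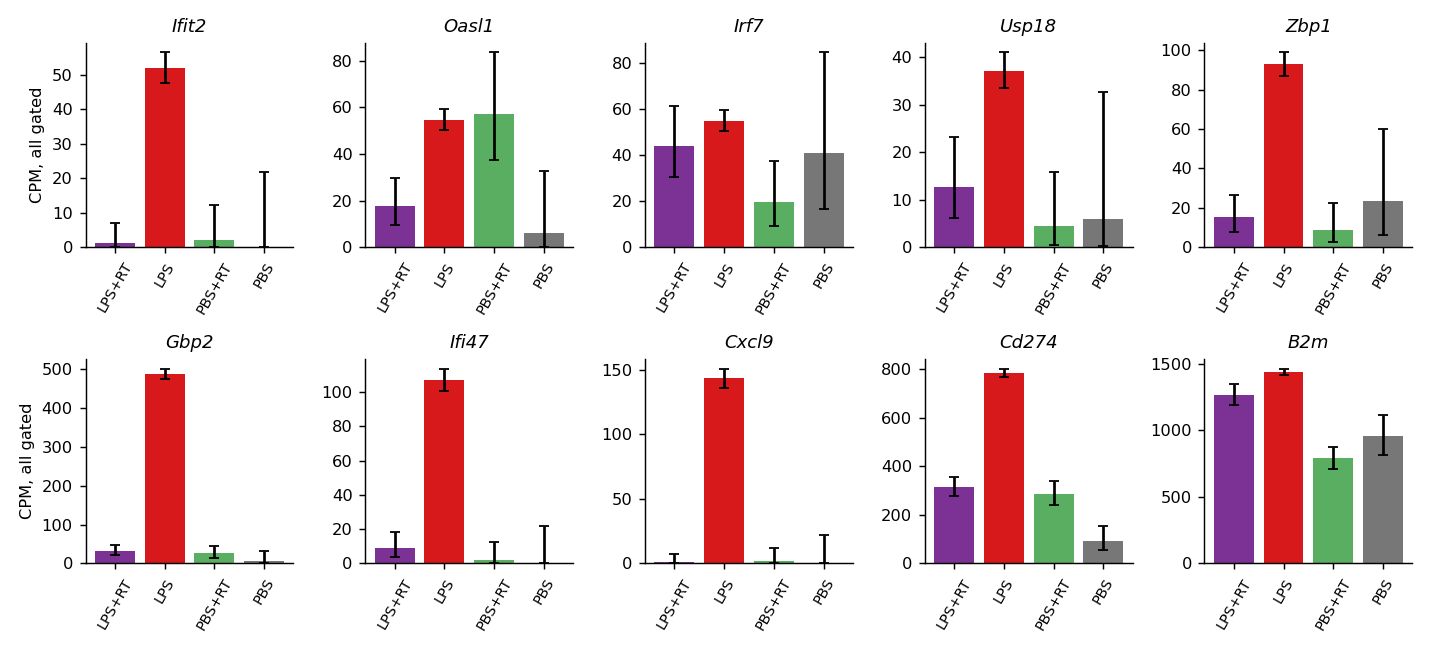
Level of 10 interferon-induced genes in all gated neutrophils of each library, in CPM, with exact 95% Poisson intervals of the summed UMIs that cover counting error only. LPS is highest for 9 of the genes, Oasl1 being the other, and Irf7 and B2m differ least between LPS+RT and LPS.

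**Figure D5:**
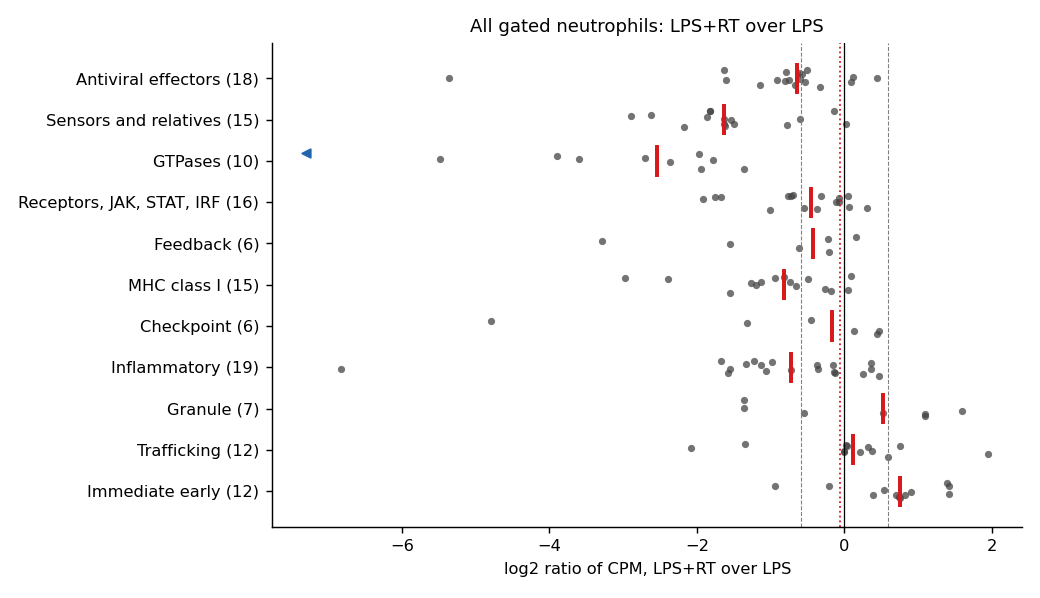
Each dot is the log2 ratio of CPM of 1 gene in all 185 gated neutrophils of LPS+RT over all 1695 of LPS, by list, with the number of measured genes in brackets. Red bars mark list medians, the dotted line the median of all 5303 genes, dashed lines a 1.5-fold difference, and the triangle a GTPase with 0 UMIs in LPS+RT. The GTPase median is -2.54 and the immediate early median 0.75.

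Other-type markers differed between these libraries as well. The structural list summed to 1234 CPM in gated neutrophils of LPS+RT and 517 CPM in those of LPS, the macrophage list to 574 and 381 CPM, the monocyte list to 434 and 554 CPM and the dendritic list to 85.7 and 144 CPM. Without barcodes holding 3 UMIs of the monocyte, macrophage and dendritic lists (80 in LPS+RT and 701 in LPS remained, with 13.8% of genes higher and 20.4% lower), the GTPases were lower for 8 of 8 with a median of -2.26, the sensors for 8 of 12, the MHC class I genes for 7 of 15 and the effectors for 4 of 17, with 1 effector higher. The effector median was then -0.33. Of 18 inflammatory genes, 8 were then lower and 1 higher, with a median of -0.19. In the other gated neutrophils alone, whose sum is under 10 in both libraries by the rule, 10.6% of genes were higher and 17% lower, and all 6 measured GTPases were lower in LPS+RT, against 1 of 15 effectors lower and 2 higher.

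The remaining pairs of libraries rest on few gated neutrophils, 69 in PBS+RT and 36 in PBS, and share those libraries with each other. In LPS over PBS, where 36.6% of genes were higher and 19.7% lower, 13 of 18 effectors were higher and 0 lower, as were 10 of 10 GTPases and 12 of 15 sensors, with 1 sensor lower. Without the barcodes that hold 3 UMIs of those other-type markers, 15 gated neutrophils remained in PBS. There 43.8% of genes were higher and 23.4% lower, with 10 of 17 effectors and 7 of 8 GTPases higher. In LPS+RT over PBS+RT, where 23.8% of genes were higher and 20.1% lower, 2 of 15 effectors were higher and 3 lower, 0 of 9 sensors were higher and 2 lower, and 12 of 17 inflammatory genes were higher and 1 lower. Among the inflammatory genes, Ccl3 was at 2079 CPM in LPS+RT and 136 CPM in PBS+RT. The effector list had a median log2 ratio of -0.17. Other-type markers differed in this pair as well: the structural list summed to 1234 CPM in LPS+RT and 514 CPM in PBS+RT, and the monocyte list to 434 and 1626 CPM, and their part was not tested. Without the marker barcodes (80 in LPS+RT and 34 in PBS+RT, 31.7% of genes higher and 25.5% lower), 1 of 10 effectors was higher and 5 lower, and 10 of 15 inflammatory genes were higher and 2 lower. In PBS+RT over PBS, with 20.3% of genes higher and 14.8% lower, 3 of 11 effectors were higher, 2 of them with an interval clear of 1, and 0 lower. Without the marker barcodes (34 in PBS+RT and 15 in PBS, 24.7% of genes higher and 18.6% lower), 5 of 9 effectors were higher and 0 lower. The monocyte list summed to 1626 CPM in gated neutrophils of PBS+RT and 388 CPM in those of PBS, and the structural list to 514 and 1234 CPM. The PBS+RT gate holds 3 barcodes over 3 times its median UMIs, the deepest at 44880 UMIs.

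The ligands were sought inside and outside the gate. Ifnb1, which encodes interferon beta, had 0 UMIs in the gated neutrophils of all 4 libraries, and outside the gate 6 UMIs in 5 cells of LPS and 0 in the others. Ifna2, Ifna4, Ifna5 and Ifnl3 had 0 UMIs in every library. Ifng, which encodes interferon gamma, had 2 UMIs in the gated neutrophils of LPS+RT, 20 in those of LPS (4 in members) and 0 in those of PBS+RT and PBS. Outside the gate, which leaves out barcodes with Cd3e or Ncr1 of T and NK cells, Ifng was at 5.38 CPM in LPS+RT (402 UMIs, 194 of 9732 cells), 52.2 CPM in LPS (3581 UMIs, 423 of 7444 cells), 1.66 CPM in PBS+RT and 2.36 CPM in PBS. The Ifng level outside the gate was thus highest in LPS, the library with the most members, and its part in the responses of the neutrophils was not tested.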

How the data were processed

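Lung cells of 4 libraries were profiled with the 10x 3′ kit. Per the file headers, the authors made the deposited counts of UMIs, which are not normalized, with Cell Ranger 7.0.1. The submitters' processing notes list mm10, Seurat 4.3.0, R 4.2.2 and Cell Ranger 7. Counting of intron reads is not given in the sources used here. Barcode sequences were not analysed here, so barcodes shared between libraries were not counted.

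Barcodes were filtered and gated as stated above, with scipy 1.17.1, numpy 2.4.6, pandas 2.3.3, scikit-learn 1.9.0, scikit-image 0.26.0 and matplotlib 3.10.9 under Python 3.11.15. UMIs were summed per library and set of barcodes and divided by the set's total (CPM). Ratios have exact conditional binomial intervals and shares exact Clopper-Pearson intervals, at 95%. In medians, a gene at 0 UMIs was placed at 3 counts. The computation was tested on simulated counts.

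The members and the 27 gene lists (312 of 317 symbols found) were chosen with earlier results of these data known. Any measured gene of a list may be named. Beyond the lists, a gene is named if it is among the 10 highest or 10 lowest in log2 ratio of CPM + 10 with at least 50 CPM. Further values on cells near the threshold, on deep barcodes and on the division of LPS members were chosen after values were seen. The symbols Mb21d1, Mnda, Mx1, Mx2 and Siglec5 of the lists were not analysed here, and values of some list genes are not reported here.

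No doublets were removed. Doublet scores after the Scrublet method (30 components, an expected rate of 8%) marked 1 barcode each in PBS and LPS at the libraries' own thresholds, so the median threshold of the other libraries was put in their place. Then 313 barcodes in LPS+RT (3.16%), 271 in LPS (2.97%), 138 in PBS+RT (2.18%) and 194 in PBS (2.15%) were marked, 0 of the LPS+RT members and 6 of the LPS members among them. Only 29.3% of simulated doublets in LPS+RT and 28.2% in LPS lay above these thresholds. Most simulated doublets thus went unmarked, and the counts of marked members do not show how many members are doublets. Leaving them out is 1 of the alternatives, which also vary the filters, the thresholds of the rule, depth and denominator.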

Additional observations from a re-analysis of the deposited data

Results flagged for a closer look

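Of the share and the gene lists checked, 4 results had opposite signs in the 2 settings that the study allows. These settings are with irradiation (LPS+RT over PBS+RT) and without it (LPS over PBS). The difference between the settings was not tested, since each is a pair of single libraries.

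The share of members among gated neutrophils had a log2 ratio of -0.20 in LPS+RT over PBS+RT and 2.45 in LPS over PBS, with counts of 7 of 185 against 3 of 69 and 258 of 1695 against 1 of 36. On the log2 scale the interval in LPS+RT over PBS+RT runs from -2.33 to 2.38. That in LPS over PBS runs from -0.037 to 7.76, and both intervals include equal shares. The sign in LPS+RT over PBS+RT turned when all barcodes were the denominator (0.58). The median log2 ratio of the antiviral effectors in all gated neutrophils was -0.17 in LPS+RT over PBS+RT and 0.94 in LPS over PBS. That of the nucleic acid sensors was -0.29 in LPS+RT over PBS+RT and 1.98 in LPS over PBS. That of the interferon receptors, kinases and factors was -0.23 in LPS+RT over PBS+RT and 0.82 in LPS over PBS. The other lists checked were positive in both pairs. In LPS+RT over PBS+RT and LPS over PBS, the GTPases had medians of 0.60 (2 measured) and 2.30. MHC class I had 0.28 and 0.96, feedback 0.31 and 1.10, and the inflammatory list 1.51 and 1.03.

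These values rest on 69 gated neutrophils in PBS+RT and 36 in PBS, and genes at 0 UMIs there were placed at 3 counts. Without barcodes that hold 3 UMIs of monocyte, macrophage and dendritic markers, 15 gated neutrophils remained in PBS, and the medians of LPS over PBS were -0.0041 for the effectors, 0.88 for the sensors and 0.54 for the signalling list. Those of LPS+RT over PBS+RT were then -0.56, -0.43 (2 sensors measured) and -0.025. The effector medians then had the same sign, but the placement at 3 counts enters the value of -0.0041. By ratios without that placement, 10 of 17 effectors were at least 1.5-fold higher in LPS over PBS and 1 lower. Of all genes in that pair, 43.8% were higher and 23.4% lower. The part of these markers was not tested.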

How the results depend on the processing

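No paired analysis was possible because each group is 1 library. The log2 share ratio of LPS+RT over LPS stayed negative under every alternative run, from -5.32 (of all barcodes) to -1.54. That of LPS over PBS stayed positive, from 0.58 (other-type marker barcodes left out) to 8.0 (of all barcodes), and had no value at a sum of 20, at 0.3% of UMIs or after thinning, since 0 PBS cells passed. LPS+RT over PBS+RT lay between -1.23 and 0.58 and PBS+RT over PBS between -0.18 and 2.10, so neither kept its sign. The effector median of LPS members over other gated neutrophils was 2.26 to 2.74, the lowest at a filter of 100 CPM, and that of LPS+RT members 0.89 to 1.68. Over all gated neutrophils, LPS+RT over LPS, the effector median was -0.67 to -0.33 (the last without marker barcodes) and the GTPase median -3.60 (at 100 CPM) to -2.10.

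The counts of genes higher and lower in LPS+RT over LPS members, 1040 and 2176, depended on the filter. They were 278 and 320 with an interval clear of 1, 213 and 635 at 100 CPM, 2556 and 10645 with no filter but 1 UMI, 363 and 607 after thinning and 511 and 775 without marker barcodes, where 2 LPS+RT members remained. For single genes named in LPS, 58 of 80 values moved little, and Arg1 turned to -0.64 without deep barcodes. The values of Ccl5, Cxcl9, Hist1h1c and Nos2 left their counting interval in 3 alternatives each and stayed within it in 1. Those of Gbp2 and Zfp36l2 left it in 2 and stayed in 2. The log2 ratio in LPS of Cxcl9, 5.78, was 5.53 to 6.85, that of Ifit2 7.76 after thinning and that of Arg1 2.93 with each cell weighted equally. Chosen after seeing the data were the marker, interval and replaced doublet threshold alternatives, S100 genes at 0.1% of UMIs, Cdh5 not used, the member with 30.5% S100 genes left out, all those on single genes and on all gated neutrophils, and the list counts without deep barcodes. Depth limits the members outside LPS, at 42626 UMIs in 7 LPS+RT cells, 21403 in 3 PBS+RT cells and 6064 in 1 PBS cell.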

Other observations

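Other gene groups of neutrophils differed less between LPS members and the other gated neutrophils of LPS. None of the 12 trafficking genes differed by 1.5-fold, and of 7 measured granule genes 0 were higher and 2 lower. Of the oxidase list 1 of 6 was higher, Cybb, the catalytic subunit of the phagocyte NADPH oxidase, with a ratio of 2.36. Of 15 survival and death genes 4 were higher and 1 lower. The inflammatory caspases Casp1 and Casp4 had ratios of 3.20 and 2.32, Casp8 2.05 and the pore protein Gsdmd 1.7. The glycolytic enzyme Hk2 had a ratio of 3.41. Acod1, which makes itaconate, was at 4743 CPM in LPS members and 1874 CPM in others, a ratio of 2.53. Spp1, the gene of osteopontin, was lower, at 267 CPM in LPS members and 625 CPM in others.

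Not all of the difference between irradiated and unirradiated LPS neutrophils was a decrease. In all gated neutrophils, where 10.6% of genes were higher and 17.2% lower, 8 of 12 immediate early genes were higher and 1 lower in LPS+RT than in LPS (7 of 10 and 0 without other-type marker barcodes), with Dusp1 at 4175 CPM in LPS+RT and 1597 CPM in LPS and Fos at 2855 and 1529 CPM. Such genes also respond to tissue dissociation, and each library was prepared from its own digest. Of 6 measured p53 targets 3 were higher and 0 lower, against 4 of 8 higher and 2 lower without those barcodes, with Cdkn1a at 792 CPM in LPS+RT and 518 CPM in LPS. Cxcr4, a receptor for return to the marrow, was at 493 CPM in LPS+RT, 127 CPM in LPS, 325 CPM in PBS+RT and 464 CPM in PBS. Retnlg was at 3948 CPM in LPS+RT, 870 CPM in LPS, 6396 CPM in PBS+RT and 6241 CPM in PBS. Of the 3132 Retnlg UMIs of LPS+RT, 760 came from 1 barcode. Il1b differed little, at 10740 CPM in LPS+RT, 11750 in LPS, 10550 in PBS+RT and 9250 in PBS.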
